A study of Mus musculus with 24 samples.

Results

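The 4 genes described here, Cdk14, Cdk16, Cdk17 and Cdk18, encode the PCTAIRE kinases and their PFTAIRE relative, and are 4 of the 54432 genes in the deposited tables. They were taken by name from the GENCODE M21 annotation, as Cdk18 and the kinases most closely related to it. Cdk18 was selected on its dDAVP-over-vehicle log2 fold changes in these same libraries and the others were added for their relation to it, so the values of dDAVP against vehicle are given below as a description, without a test. All 4 passed the filter on low counts that left 29743 genes for testing. RNA was sequenced from mpkCCD cells, a cortical collecting duct line from the mouse kidney, labelled C57BL/6, wild type and passage 10-11. The cells were grown on permeable filters for 6 days and kept for 24 h in minimal medium. They then received the V2 receptor agonist dDAVP (a vasopressin analogue) on the basolateral side for 3, 6, 12 or 24 h, or vehicle for the same times, with 3 libraries in each of the 8 groups. The labels do not say that the 3 libraries of a group were separate cultures, so p-values reflect only how these libraries vary, and that variation may be technical.

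PCTAIRE and PFTAIRE kinases are serine/threonine kinases of the cyclin-dependent kinase (CDK) family, named after the letters that stand in place of PSTAIRE in the helix that contacts the cyclin. Human CDK16 and CDK14 are activated at the membrane by cyclin Y, and human CDK18 has been reported to bind cyclin A2 and to be phosphorylated by protein kinase A (PKA). In the collecting duct, vasopressin raises cAMP, PKA then drives the water channel Aqp2 to the apical membrane, and CDK18 has been tied in renal cell models to the abundance of Aqp2 through the ubiquitin ligase STUB1. CDK16 phosphorylates the membrane fusion factor NSF, CDK14 acts with cyclin Y on the Wnt co-receptor LRP6, and CDK17 is the least studied of the 4.

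The coding bases of the family motif, which gives these kinases their name, were read from the GENCODE M21 transcripts. Each is printed 5′ to 3′ on the coding strand, with the codon of the variable residue in capitals, which is cysteine in the PCTAIRE kinases and phenylalanine in Cdk14.
Cdk18: cccTGCactgctattcgagag
Cdk16: cccTGTactgctatccgggaa
Cdk17: cccTGTacagctataagagaa
Cdk14: cctTTCacagccatcagggaa
The motif was found in 2 of 2 coding transcripts of Cdk18, 2 of 2 of Cdk16, 1 of 3 of Cdk17 and 4 of 6 of Cdk14.

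In GRCm38 coordinates of the annotation, Cdk18 (ENSMUSG00000026437) lies at chr1:132112237-132139684 on the minus strand and Cdk16 (ENSMUSG00000031065) at chrX:20687954-20699880 on the plus strand. Cdk17 (ENSMUSG00000020015) lies at chr10:93160875-93267071 on the plus strand, and Cdk14 (ENSMUSG00000028926), the longest of the 4 genes, at chr5:4803391-5420312 on the minus strand. Whether counting used the strand of the reads is not given in the sources used here, so genes that overlap a kinase on the other strand leave its count uncertain. Over the start of Cdk18, 181 bases are shared with the antisense gene Gm29629, which held 0 to 9.17 estimated counts per library. The end of Cdk17 shares 19658 bases with Elk3 on the opposite strand, which held 933 to 1733 estimated counts.

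Library totals ran from 17.25 M to 27.64 M estimated counts. Of the 14 collecting duct principal cell markers, 13 had a median of at least 1 CPM, Kcnj1 being the exception. CPM of marker lists are counts scaled to a common library total. CPM values of single genes were also scaled by TMM factors (trimmed mean of M-values, 0.814 to 1.326). The 14 summed to 1183 to 1527 CPM in dDAVP libraries and 1019 to 1463 CPM in vehicle libraries. A median of 1 CPM was also reached by 4 of 4 neuron, 3 of 4 mesenchyme, 3 of 4 leukocyte and 3 of 5 proximal tubule markers. It was reached by 2 of 3 podocyte, 2 of 4 endothelium, 2 of 6 intercalated and 1 of 4 thick limb and distal tubule markers. Cdh16 (744 CPM) and Gata3 (230 CPM) had the highest medians of the 14, against 4.01 CPM for Aqp3 and 1.15 CPM for Aqp4. Markers of proximal tubule summed to 42.1 to 62.0 CPM in dDAVP libraries and 60.5 to 73.6 CPM in vehicle libraries, podocyte markers to 40.3 to 51.6 CPM in dDAVP and 43.0 to 52.6 CPM in vehicle libraries, and each of the other 6 lists of markers (intercalated cell, thick limb and distal tubule, endothelium, mesenchyme, leukocyte and neuron) to at most 25.9 CPM. Olfactory and vomeronasal receptor genes, most of which are expressed in sensory neurons, took 0.14 to 0.933% of the counts of a library, and this receptor share differed between the groups. It averaged 0.387 ± 0.126% in dDAVP and 0.652 ± 0.266% in vehicle libraries at 3 h, and 0.203 ± 0.0754% in dDAVP and 0.544 ± 0.0756% in vehicle libraries at 6 h (SD, n = 3 each). At 12 h the averages were 0.346 ± 0.0539% in dDAVP and 0.493 ± 0.295% in vehicle libraries, and at 24 h they were 0.208 ± 0.0455% in dDAVP and 0.233 ± 0.0677% in vehicle libraries (SD, n = 3 each). Since it moved with treatment and time, the values below are given with and without it as a covariate; its part in any result was not tested beyond that, and neither was that of the proximal tubule markers. These are bulk libraries, in which more RNA per cell and more cells with the RNA cannot be told apart.

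Cdk18 RNA was more abundant in dDAVP than in vehicle cells at all 4 times. In TMM-scaled CPM the difference was largest at 3 h and smallest at 24 h. The dDAVP group means ran from 116 to 126 CPM, and the vehicle means from 58.6 CPM at 3 h to 85.7 CPM at 24 h. On log2(TPM + 0.1), without rescaling, the difference was 0.75, 0.26, 0.56 and 0.34 at the 4 times and the vehicle libraries differed by 0.0505 between 24 h and 3 h. At 3 h, Cdk18 stood at 109.5, 130.6 and 138.2 CPM in dDAVP libraries, against 49.1, 61.3 and 65.4 CPM in vehicle libraries. At 6 h it stood at 121.8, 128.7 and 119.9 CPM in dDAVP libraries, against 63.3, 65.8 and 64.6 CPM in vehicle libraries. At both early times every dDAVP library lay well above every vehicle library. At 12 h the values were 113.0, 117.9 and 116.6 CPM in dDAVP libraries, against 63.8, 91.3 and 76.5 CPM in vehicle libraries. At 24 h they were 122.0, 110.0 and 117.1 CPM in dDAVP libraries, against 86.4, 90.7 and 80.0 CPM in vehicle libraries. The groups stayed apart at the late times too. Between 24 h and 3 h the vehicle level differed by 0.55 on the log2 scale and the dDAVP effect by -0.66, but by 0.25 and -0.54 with the receptor share as a covariate and by 0.25 and -0.49 with the 5 CPM filter, so the vehicle group's part of the narrowing differed between these fits. All dDAVP libraries above all vehicle libraries was seen for 4.04% of the genes tested at 3 h, 29.8% at 6 h, 2.47% at 12 h and 4.25% at 24 h. These CPM values rest on 1817 to 3004 estimated counts of Cdk18 in dDAVP libraries and 1191 to 1966 in vehicle libraries.

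**Figure D1:**
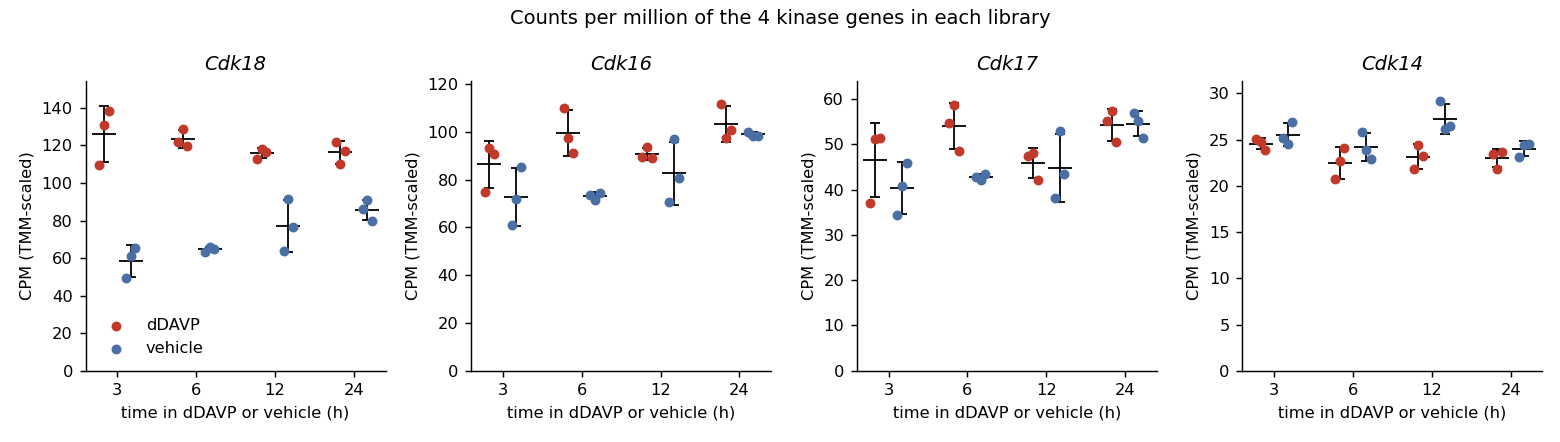
CPM (scaled by TMM, the trimmed mean of M-values) of Cdk18, Cdk16, Cdk17 and Cdk14 in each library against time in dDAVP (red, left) or vehicle (blue, right), with the mean and SD of 3 libraries as bars. The red Cdk18 points lie above the blue ones at every time, while the groups of the other 3 genes overlap at most times.

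The fitted log2 fold change of Cdk18 was 1.11 ± 0.12 at 3 h, 0.93 ± 0.12 at 6 h, 0.59 ± 0.12 at 12 h and 0.44 ± 0.12 at 24 h (SE, 3 libraries per group), or 2.15-, 1.91-, 1.5- and 1.36-fold. Averaged over the 4 times it was 0.77 ± 0.06, or 1.70-fold. Genes of at least 5 CPM as a whole were also higher in dDAVP in this scaling, with a median log2 fold change of 0.19 at 3 h, 0.33 at 6 h, 0.08 at 12 h and 0.01 at 24 h. Cdk18 stood above that median by 0.92, 0.60, 0.51 and 0.43 at the 4 times. With the share as a covariate the log2 fold change of Cdk18 was 0.96 ± 0.08, 0.62 ± 0.09, 0.54 ± 0.07 and 0.41 ± 0.07, and its distance from the median gene was 0.92, 0.60, 0.50 and 0.43. The order of the times and the sign were therefore kept, and the value at 6 h was the one that moved most. Without the pair of libraries with the highest receptor share (vehicle library 1 at 3 h and vehicle library 1 at 12 h), the log2 fold changes were 0.98, 0.84, 0.48 and 0.45.

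Cdk16 and Cdk17 lay near the median of expressed genes at each time, and Cdk14 lay below it. Cdk16 stood at 75.0, 93.3 and 90.8 CPM in dDAVP libraries at 3 h, against 61.1, 71.7 and 85.1 CPM in vehicle libraries. At 6 h it stood at 110.1, 97.3 and 90.9 CPM in dDAVP libraries, against 73.6, 71.5 and 74.5 CPM in vehicle libraries, and at this time the groups did not overlap. At 12 h Cdk16 had 89.3, 93.6 and 89.2 CPM in dDAVP libraries, against 70.6, 96.8 and 80.6 CPM in vehicle libraries, which overlapped. The 24 h values were 111.8, 97.5 and 100.5 CPM in dDAVP libraries, against 99.8, 98.4 and 98.3 CPM in vehicle libraries, again overlapping. The log2 fold changes of Cdk16 were 0.25, 0.44, 0.13 and 0.06 (SE 0.12 each), which lay 0.06 to 0.11 above the median of genes of at least 5 CPM at every time. With the covariate they were 0.11, 0.14, 0.09 and 0.03 (SE 0.08 to 0.10).

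Cdk17 was expressed at a lower level and showed a similar picture. It stood at 37.0, 51.2 and 51.3 CPM in dDAVP libraries at 3 h, against 34.4, 40.8 and 45.8 CPM in vehicle libraries. At 6 h it had 54.8, 58.7 and 48.6 CPM in dDAVP libraries, against 42.7, 42.0 and 43.4 CPM in vehicle libraries. As for Cdk16, 6 h was the only one of the 4 times at which the groups did not overlap, a time at which 29.8% of all genes tested had every dDAVP library on top. At 12 h the values were 47.3, 48.0 and 42.1 CPM in dDAVP libraries, against 38.1, 52.9 and 43.4 CPM in vehicle libraries. At 24 h they were 55.0, 57.4 and 50.5 CPM in dDAVP libraries, against 56.9, 55.2 and 51.5 CPM in vehicle libraries. The log2 fold changes of Cdk17 were 0.21, 0.34, 0.03 and -0.01 (SE 0.13 each). Given the covariate, they were 0.02, -0.04, -0.03 and -0.05, so the sign at 3 h was kept and those at 6 and 12 h turned, all within 1 SE of 0.

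Cdk14, the PFTAIRE kinase, had the lowest CPM of the 4, and its fitted log2 fold change was small and depended on the scaling. At 3 h it had 25.1, 24.7 and 23.9 CPM in dDAVP libraries, against 25.2, 24.5 and 26.9 CPM in vehicle libraries. The 6 h values were 20.7, 22.6 and 24.1 CPM in dDAVP libraries, against 25.8, 23.8 and 22.9 CPM in vehicle libraries. The groups overlapped at both of these times. At 12 h Cdk14 had 21.8, 24.5 and 23.3 CPM in dDAVP libraries, against 29.1, 26.1 and 26.5 CPM in vehicle libraries, so that each dDAVP library lay below each vehicle library, as was the case for 2.24% of the genes tested. At 24 h it had 23.5, 21.9 and 23.7 CPM in dDAVP libraries, against 23.1, 24.4 and 24.6 CPM in vehicle libraries. The log2 fold changes were -0.06, -0.10, -0.24 and -0.06 (SE 0.09 to 0.10), and -0.02, -0.03, -0.22 and -0.05 with the covariate. The sign turned at 3 h with DESeq2 (0.042), median-of-ratios scaling (0.040) and no filter (0.021), and at 6 h with the first pair (0.0017 and 0.0023). With the 5 CPM filter the values at 3 and 6 h were -0.24 and -0.42, and on log2(TPM + 0.1), which carries the length variation described below, -0.66 and -0.94.

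**Figure D2:**
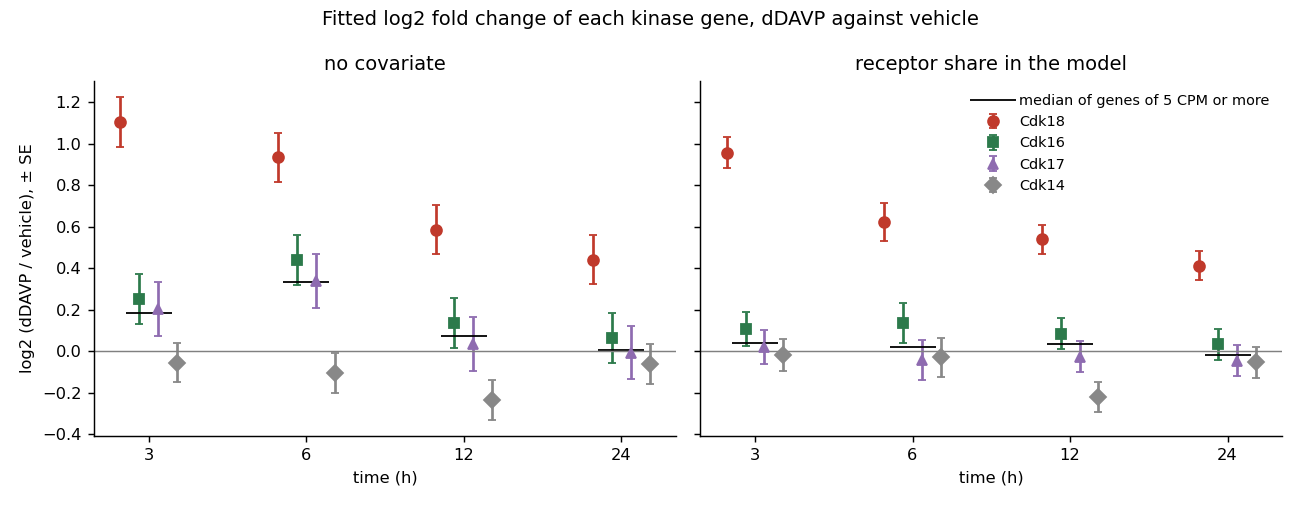
Fitted log2 fold change (dDAVP over vehicle, ± SE) of each kinase gene at 3, 6, 12 and 24 h, without a covariate on the left and with the receptor share as a covariate on the right; black lines mark the median of genes with a mean of at least 5 CPM. Cdk18 lies above the line at every time in both panels, with values of 1.11 at 3 h and 0.44 at 24 h on the left.

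Levels of different genes were compared per length, in TPM (transcripts scaled by length to a fixed total per library) as deposited, and as ratios within a library. A single miRNA gene, Gm24245, took 37.4 to 51.7% of each library's TPM, so a TPM value cannot be compared between libraries without rescaling, but a ratio of 2 genes in the same library is not touched by it. Cdk18 had a median of 21.7 TPM (range 17.99 to 26.9) over the 12 dDAVP libraries and 16.3 TPM (14.4 to 16.7) over the 12 vehicle libraries. Cdk16 had a median of 19.0 TPM (15.0 to 21.8) in dDAVP and 19.2 TPM (16.2 to 21.4) in vehicle libraries. Cdk17 had 9.06 TPM (6.67 to 10.7) in dDAVP and 9.48 TPM (8.45 to 10.9) in vehicle libraries, and Cdk14 had 4.25 TPM (2.80 to 6.86) in dDAVP and 5.98 TPM (3.96 to 11.7) in vehicle libraries. The order of the 2 most abundant kinases differed between the treatments. Cdk18 was above Cdk16 in 11 of 12 dDAVP libraries and in 0 of 12 vehicle libraries. Both were above Cdk17 in all 24 libraries, and Cdk17 was above Cdk14 in 12 of 12 dDAVP and 11 of 12 vehicle libraries.

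The ratio of Cdk18 to Cdk16 TPM was 1.38 ± 0.08 in dDAVP and 0.745 ± 0.035 in vehicle libraries at 3 h, and 1.13 ± 0.12 in dDAVP and 0.897 ± 0.044 in vehicle libraries at 6 h (SD, n = 3 each). It was 1.28 ± 0.06 in dDAVP and 0.861 ± 0.039 in vehicle libraries at 12 h, and 1.03 ± 0.04 in dDAVP and 0.807 ± 0.043 in vehicle libraries at 24 h. The groups did not overlap at any time. At 24 h in dDAVP the ratio ran from 0.998 to 1.08, so that the 2 kinases did not differ there beyond their spread, while in vehicle libraries Cdk16 was the higher gene throughout. Of the summed TPM of the 4 kinases, Cdk18 made up a median of 41.2% (35.6 to 45.0%) in dDAVP libraries and 31.6% (26.05 to 34.7%) in vehicle libraries. That sum includes the TPM of Cdk14, which carries the length variation described below, and its part in these percentages was not tested. The ratio of Cdk17 to Cdk16 TPM, by contrast, had a median of 0.499 (0.416 to 0.597) in dDAVP and 0.508 (0.443 to 0.556) in vehicle libraries, and the groups overlapped. In counts the ratio had a median of 0.522 (0.472 to 0.603) in dDAVP and 0.562 (0.523 to 0.587) in vehicle libraries. The count ratios overlapped at 3, 6 and 24 h. At 12 h they did not, with 0.472 to 0.530 in dDAVP and 0.538 to 0.546 in vehicle libraries.

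**Figure D3:**
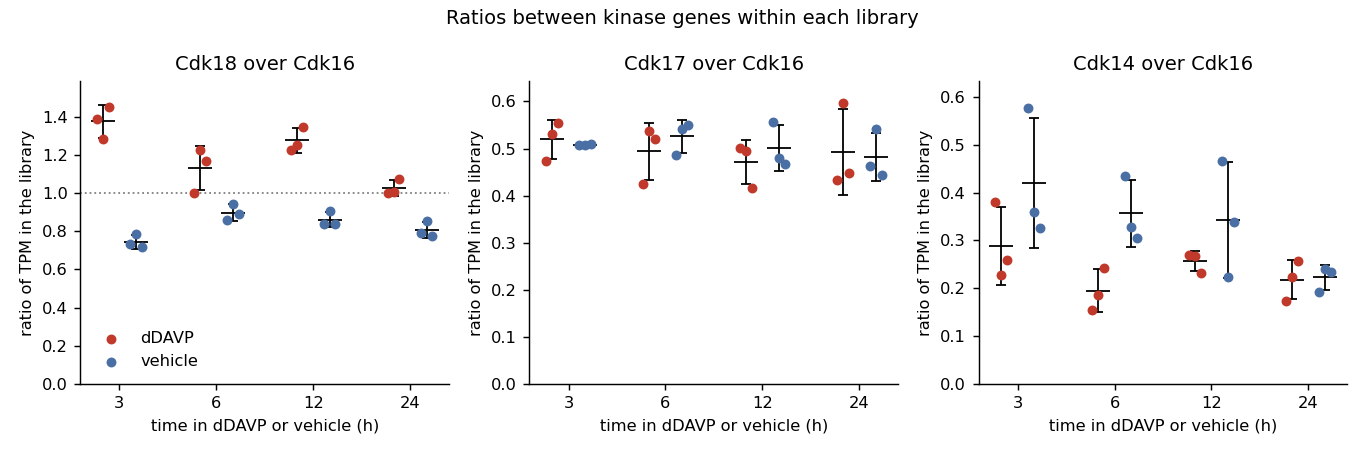
Ratios of TPM within each library, Cdk18 over Cdk16, Cdk17 over Cdk16 and Cdk14 over Cdk16, against time in dDAVP (red, left) or vehicle (blue, right), with mean and SD of 3 libraries; the dotted line marks equal levels. Cdk18 over Cdk16 runs from 0.998 to 1.45 in dDAVP and from 0.716 to 0.945 in vehicle libraries, and the 2 groups of the middle panel overlap at every time.

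Besides the dDAVP comparison itself, 2 questions were tested. The first was whether the kinases changed with time in vehicle cells, a contrast of vehicle groups only, in a model whose filter, scaling and dispersion come from all 24 libraries. The vehicle libraries are also the denominators of the fold changes on which Cdk18 was picked, so this test is no independent support for its pattern. It was made with edgeR's quasi-likelihood F test over 3, 6, 12 and 24 h and Benjamini-Hochberg adjustment over all 29743 genes, in which 10.1% of the genes passed 0.05. Cdk18 passed, with an adjusted p of 0.016 and a log2 difference of 0.55 ± 0.12 (SE) between 24 h and 3 h in vehicle, from group means of 85.7 ± 5.4 CPM at 24 h and 58.6 ± 8.5 CPM at 3 h (SD, n = 3 each). Cdk16 passed with an adjusted p of 0.041 (edgeR) and a log2 difference of 0.45 ± 0.12, Cdk17 did not (adjusted p = 0.076 by edgeR, 0.44 ± 0.13), nor did Cdk14 (adjusted p = 0.33 by edgeR, -0.09 ± 0.09). Fitted on the 12 vehicle libraries alone, neither Cdk18 (adjusted p = 0.17 by edgeR, 0.50) nor Cdk16 (adjusted p = 0.19 by edgeR, 0.40) passed. Over the same interval the median gene of at least 5 CPM differed by 0.31. Under the covariate, where 2.59% of genes passed, neither Cdk18 (adjusted p = 0.15 by edgeR, 0.25 ± 0.09) nor Cdk16 (adjusted p = 0.72 by edgeR, 0.16 ± 0.10) passed, but Cdk18 passed with the covariate and a filter of 5 CPM together (adjusted p = 0.013 by edgeR, 0.23 ± 0.07). Both passed without the 2 libraries of highest receptor share (adjusted p = 0.0040 and 0.022 by edgeR, 0.42 and 0.32), a fit in which 12.3% of the genes passed. The Cdk18 call was lost without vehicle library 1 at 3 h (adjusted p = 0.058 by edgeR), library 1 at 24 h (0.078) or library 2 at 24 h (0.089). The Cdk16 call held in the edgeR fits without library 3 at 3 h, library 1 at 12 h or library 2 at 12 h and was lost in the other 9 fits that leave out 1 vehicle library (adjusted p 0.054 to 0.19). It was also lost with the 5 CPM filter (0.068), without a filter (0.090), with median-of-ratios scaling (0.109) and, by limma, on rescaled TPM (0.099). Cdk17 passed in the fits without library 3 at 3 h, library 1 at 12 h or library 2 at 12 h. The Cdk14 difference between 24 h and 3 h depended on the filter and scaling. It was -0.40 ± 0.12 with the 5 CPM filter (F test adjusted p = 0.057 by edgeR) and 0.07 ± 0.14 with median-of-ratios scaling.

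The second was whether the dDAVP effect depended on time, which compares the effects at the 4 times with each other. Cdk18 was picked on those same effects, so its values are a description, and no test of whether its effect narrowed is given. Its effect at 24 h differed from that at 3 h by -0.66 on the log2 scale. This difference was -0.54 under the covariate and -0.49 with a filter at 5 CPM. Over the fits that leave out 1 library it ran from -0.76 to -0.54. By edgeR's F test 0.343% of the genes passed, and 0.256% under the covariate. For Cdk16, Cdk17 and Cdk14 the edgeR adjusted p was 0.66, 0.68 and 0.80, with log2 differences between the 24 h and 3 h effects of -0.19, -0.21 and -0.0057.

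The genes with the profile most like that of Cdk18 were sought by 1 measure, the root mean square (RMS) difference of log2 CPM over the 8 group means, each gene centred on its own mean, among 10524 named genes of at least 5 CPM. Dnajb2, which encodes an HSP40-type co-chaperone, was nearest (RMS 0.079). It was followed by Gdpd1, a glycerophosphodiester phosphodiesterase (0.097), Sik1, a salt-inducible kinase known as a cAMP-induced gene (0.100), Tmem173, the innate immune adaptor STING (0.103), and Ghr, the growth hormone receptor (0.112). Their log2 fold changes in dDAVP were 0.69 to 1.22 at 3 h and 0.31 to 0.41 at 24 h. The related kinases were left out of this search, and their distance to Cdk18 was ranked separately. Of the 10524 genes, 1148 lay closer to Cdk18 than Cdk16 (RMS 0.293), 5118 closer than Cdk17 (0.334) and 9735 closer than Cdk14 (0.473). On log2(TPM + 1), 2 of the 5 nearest genes were the same.

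**Figure D4:**
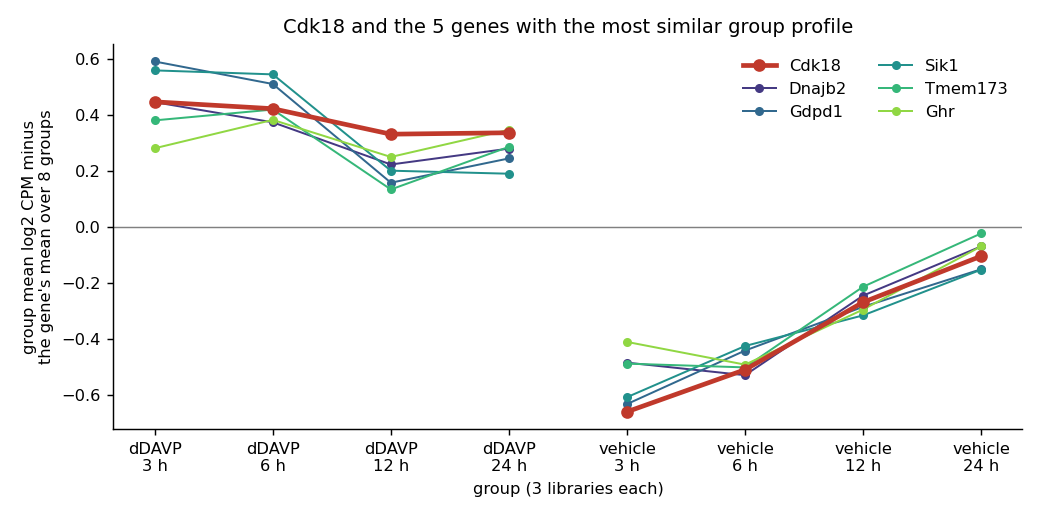
Group mean log2 CPM of Cdk18 and the 5 genes with the most similar profile, each centred on its mean over the 8 groups of 3 libraries, for dDAVP on the left and vehicle on the right. All 6 lines lie above 0 in dDAVP and below 0 in vehicle and climb in vehicle between 6 and 24 h; Cdk18 is at 0.45 in dDAVP and -0.66 in vehicle at 3 h.

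Promoter sequence was looked at for the most responsive gene and for its closest relative in level, since cAMP signalling is known to act through CREB, which binds the cAMP response element (CRE). The 250 bases before the RefSeq start (GRCm38.p6) are printed 5′ to 3′ on the strand of the gene, with motif matches in capitals. The Cdk18 window is chr1:132139686-132139935 (minus strand) and the Cdk16 window is chrX:20687704-20687953 (plus strand).
Cdk18: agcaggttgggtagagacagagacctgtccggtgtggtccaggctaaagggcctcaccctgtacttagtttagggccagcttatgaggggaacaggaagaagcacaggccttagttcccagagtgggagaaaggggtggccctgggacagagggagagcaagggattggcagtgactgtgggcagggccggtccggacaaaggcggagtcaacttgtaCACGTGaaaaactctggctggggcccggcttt
Cdk16: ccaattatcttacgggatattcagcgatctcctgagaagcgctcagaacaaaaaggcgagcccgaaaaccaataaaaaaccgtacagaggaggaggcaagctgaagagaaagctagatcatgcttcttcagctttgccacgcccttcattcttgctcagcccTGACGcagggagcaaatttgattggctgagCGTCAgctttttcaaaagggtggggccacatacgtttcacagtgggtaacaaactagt
The motifs searched on both strands were the full CRE TGACGTCA, the short CRE TGACG (part of the full one) and the E-box CACGTG, which occur in 1.55%, 17.8% and 6.02% of 32851 such windows. The Cdk18 window held neither form of the CRE and 1 E-box, which begins 32 bases before the start. That of Cdk16 held 2 short sites, which begin 88 and 58 bases before the start, and no full CRE or E-box. A second RefSeq start of Cdk16 and the window of Cdk14 held none of the 3 motifs. The Cdk14 window is chr5:5380252-5380501 (minus strand). It lies inside the annotated gene, which on this strand begins at 5420312, so the bases before that annotated start were not searched. These matches describe letters in the windows only.

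The Cdk14 locus differed from the other 3 in what lies inside it. Its introns contain 7 genes annotated as sense intronic on the same strand, and their summed counts were higher where the receptor share was higher. They held 580 to 1459 estimated counts (median 798.5) in the 12 libraries with the higher receptor share and 232 to 590 (median 377) in the 12 with the lower share. The counts assigned to Cdk14 itself, not divided by library depth, were 465 to 724 (median 518.5) in the 12 of higher share. They were 361 to 568 (median 500.5) in the 12 of lower share. Relative to the Cdk16 count of the same library, the Cdk14 count was 0.413 in vehicle library 1 at 3 h and at 12 h, which had the highest shares. It was 0.233 and 0.224 in dDAVP library 2 at 6 h and at 24 h, which had the lowest shares. The length implied by the counts and TPM of Cdk14, relative to the median gene of its library, was 0.877 to 1.28 (median 1.14) in the 12 libraries of higher share and 1.12 to 1.51 (median 1.42) in the 12 of lower share. Over all 24 libraries this relative length had an SD of 0.170 for Cdk14, against 0.048 for Cdk18, 0.030 for Cdk16 and 0.082 for Cdk17. A shorter implied length raises TPM at the same count, so the TPM of Cdk14 carries this variation in length and its CPM does not. This concerns length only, since the count relative to Cdk16 also differed between libraries of high and low share, as given above. The part of the receptor share in the Cdk14 values was not tested beyond the covariate fit above.

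**Figure D5:**
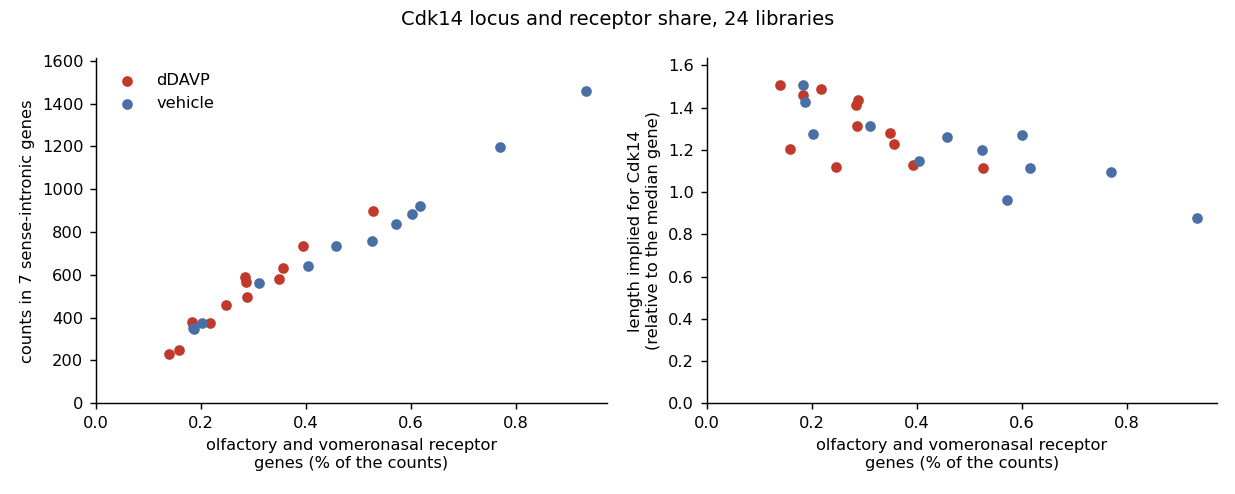
Summed estimated counts of 7 sense-intronic genes inside Cdk14 (left) and the length implied for Cdk14 relative to the median gene (right) against the receptor share of the library (percent of counts), in 24 libraries (dDAVP red, vehicle blue). The intronic counts run from 232 to 1459 and are higher at higher shares, and the implied length is lower there.

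Lists of partners were examined for the mean effect of dDAVP over the 4 times, in which 16.7% of all genes tested were called higher and 16.4% lower by edgeR (33.1% in either direction). All genes tested had a median log2 fold change of -0.20, and the median was 0.15 over genes of at least 5 CPM. The share called higher among genes of at least 5 CPM is not given here. Counts of list genes called are therefore a description and show no enrichment. The covariate fit called 1.22% of the genes, and without the 2 libraries of highest share 1.87%. DESeq2 on all libraries called 9550 genes in either direction, against 9854 by edgeR. Of the 13 cyclin and adaptor partners, 9 rose and 0 fell, with a median log2 fold change of 0.19. Of the cyclins that activate this family, Ccny (cyclin Y) had a median of 4.92 TPM over the 24 libraries, Ccnyl1 (cyclin Y-like 1) 1.36 TPM and Ccna2 (cyclin A2) 84.6 TPM. Among them Ccna2 rose, and Ccny and Ccnyl1 did not pass the test. The smallest p belonged to Ccne1 (cyclin E1, log2 fold change 0.26 ± 0.06, adjusted p = 0.013 by edgeR), Ccnd3 (cyclin D3, 0.22 ± 0.06, adjusted p = 0.018) and Ywhaz (14-3-3 zeta, 0.27 ± 0.07, adjusted p = 0.019). In the covariate fit of edgeR, 0 of the 13 were called (4 higher and 1 lower at an unadjusted p under 0.05). Without the 2 libraries of highest share 0 were called by edgeR (7 and 0 unadjusted), and DESeq2 on all libraries called 9 higher.

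Of the 10 substrates and interactors, 8 rose and 0 fell, where 16.7% of all genes tested rose. Their median was 0.20, against 0.15 for genes of at least 5 CPM. Lrp6, the Wnt co-receptor on which CDK14 acts, had a log2 fold change of 0.33 ± 0.07 (SE, adjusted p = 0.0037 by edgeR), Cdkn1b, the CDK inhibitor p27, 0.32 ± 0.07 (adjusted p = 0.010) and Rb1, the retinoblastoma protein, 0.23 ± 0.07 (adjusted p = 0.021). Stub1 rose as well and was abundant, with a median of 121 TPM over the 24 libraries, while Nsf, a CDK16 substrate, did not pass the test at a median of 13.9 TPM. In edgeR's covariate fit 0 of the 10 were called (2 higher and 0 lower unadjusted), and without the 2 libraries of highest share Lrp6 and Cdkn1b were called.

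Of the 17 genes of Aqp2 ubiquitination and sorting, which include Stub1, 13 rose and 0 fell, where 16.7% of all genes tested rose. Their median was 0.19, against 0.15 for genes of at least 5 CPM. Nedd4l, an E3 ligase best known for acting on the epithelial sodium channel, averaged 98.9 CPM in dDAVP and 78.2 CPM in vehicle libraries, a log2 fold change of 0.35 ± 0.05 (adjusted p = 0.000218 by edgeR). It passed at 3 h as well (0.51 ± 0.11, adjusted p = 0.018 by edgeR), where 0.484% of all genes were called, but 0 of the 17 genes passed at 3 h in the edgeR fit without the 2 libraries of highest share or with DESeq2 (1 higher unadjusted in each). In edgeR's covariate fit Nedd4l was the one gene of the 17 called for the mean effect (0.23 ± 0.04, adjusted p = 0.000813), and the same was true without the 2 libraries of highest share (0.29, adjusted p = 0.000578 by edgeR). It was not called on log2(TPM + 1) with limma (0.10, adjusted p = 0.13). Over the fits that leave out 1 library its edgeR adjusted p ran from 6.11e-06 to 0.000951. Hgs, an ESCRT-0 sorting protein (0.22 ± 0.06, adjusted p = 0.021 by edgeR), and Ndfip1, an adaptor of Nedd4 ligases (0.21 ± 0.06, adjusted p = 0.022), had the next smallest p and were not called with the receptor share in the model. Ndfip1 was also lost without vehicle library 1 at 3 h (adjusted p = 0.0501 by edgeR). Aqp2 itself, the defining response of these cells, averaged 169.6 CPM in dDAVP and 5.81 CPM in vehicle libraries, a log2 fold change of 4.83 ± 0.08 (adjusted p = 2.02e-23 by edgeR).

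Of the 9 PKA subunits and inhibitors, 4 rose and 1 fell, where 16.7% of all genes tested rose and 16.4% fell. Their median was 0.11, against 0.15 for genes of at least 5 CPM. Prkar2b, the RII-beta regulatory subunit, averaged 158.2 CPM in dDAVP and 122.4 CPM in vehicle libraries (log2 fold change 0.37 ± 0.07, adjusted p = 0.0016 by edgeR). It remained called with the receptor share in the model (0.20 ± 0.05, adjusted p = 0.026 by edgeR) and was the only one of the 9 called there. Prkar1a, the RI-alpha regulatory subunit, had 0.31 ± 0.07 (adjusted p = 0.010 by edgeR), and was called without the 2 libraries of highest share but not with the receptor share in the model (0.13 ± 0.04, adjusted p = 0.098 by edgeR). Pkib, a PKA inhibitor, averaged 24.9 CPM in dDAVP and 36.5 CPM in vehicle libraries (-0.51 ± 0.16, adjusted p = 0.024 by edgeR), but its sign turned in the covariate fit (0.08 ± 0.06, adjusted p = 0.77 by edgeR), and it was not called without the 2 libraries of highest share (-0.33, adjusted p = 0.13 by edgeR). The Pkib call was also lost in 4 of the 24 edgeR fits that leave out 1 library, which were those without vehicle library 1 at 3 h, vehicle library 1 at 12 h, vehicle library 3 at 24 h or dDAVP library 2 at 3 h (adjusted p 0.052 to 0.058).

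Of the 20 other CDK and CDK-like kinases, 8 rose and 1 fell (median 0.12), where 16.7% of all genes tested rose and 16.4% fell. Cdk19, a Mediator kinase, had a log2 fold change of 0.20 ± 0.06 (adjusted p = 0.022 by edgeR), Cdkl1, a CDK-like kinase tied to cilia, 0.21 ± 0.07 (adjusted p = 0.031) and Cdkl3 -0.31 ± 0.10 (adjusted p = 0.026) at a mean of 5.57 CPM in dDAVP and 6.95 CPM in vehicle libraries. Cdk19 was lost without vehicle library 1 at 3 h (adjusted p = 0.0501 by edgeR), and Cdkl3 without that library, vehicle library 1 at 12 h, vehicle library 3 at 24 h or dDAVP library 2 at 3 h (0.052 to 0.060). Cdkl1 was lost in 11 of the 24 edgeR fits that leave out 1 library (adjusted p 0.0502 to 0.068), which left out vehicle library 1 at 3 h, 1 or 2 at 6 h, 1 or 3 at 12 h or 3 at 24 h, or dDAVP library 2 or 3 at 3 h, 1 or 2 at 6 h or 2 at 24 h. The covariate fit of edgeR called 0 of the 20 (1 higher and 0 lower unadjusted), as did the one without the 2 libraries of highest share (5 and 1 unadjusted), while DESeq2 on all libraries called 9 higher and 1 lower. Cdk15, the second PFTAIRE kinase of the mouse, had a median of 0.740 TPM over the 24 libraries. The 5 lists had medians of 0.11 to 0.20, against 0.15 for genes of at least 5 CPM, and the mean effect of Cdk18 over the 4 times was 0.77.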

How the data were processed

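RNA was measured in 24 libraries of mpkCCD cells (8 groups of treatment and time, 3 libraries each). Per the labels, RNA was isolated by Trizol and columns, and sequencing libraries came from SMART-Seq HT cDNA and Nextera tagmentation. The authors deposited estimated counts for each gene, not normalized, and the deposited TPM values are scaled by the authors to a fixed total per library. Salmon 0.14.10 and GRCm38.p6 stand in the submitters' processing notes; how transcripts were summed to genes is not given in the sources used here.

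For testing, the estimated counts were rounded and fitted with edgeR 4.0.16 (TMM factors 0.814 to 1.326, filterByExpr, 1 mean per group, quasi-likelihood F test, Benjamini-Hochberg adjustment over 29743 genes, threshold 0.05). SE is the log2 fold change divided by the square root of F. The biological coefficient of variation was 0.191, and 0.0797 with a covariate, the log2 of the percent of counts that fell in 1962 genes named Olfr or Vmn (receptor share). At 17.25 M to 27.64 M counts per library, the 4 kinases had 361 or more counts in each. In simulated data the fit recovered 17.9 to 29.9% of 1.5-fold, 53.7 to 61.2% of 2-fold and 83.3 to 93.9% of 4-fold changes. A gene that did not pass may therefore still have changed. The simulation held no shift in receptor share, unlike these libraries. Between libraries of a group chi-square per gene was 2.43 to 34.1, so none duplicated another. Gene names and positions came from GENCODE M21 (54346 of 54432 identifiers named); promoters came from RefSeq, where Cdk17 was not matched. Implied length is the count divided by TPM, relative to the median of genes with at least 50 counts in every library.

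Alternatives were median-of-ratios scaling (RLE), DESeq2 1.42.0, no filter, a 5 CPM filter, a replicate block, limma 3.58.1 on log2(TPM + 1) and log2(TPM + 0.1), a fit of the compared libraries alone, the covariate, and leaving out each library. TPM rescaled by TMM, the covariate with the 5 CPM filter, and fits without the 2 libraries of highest receptor share were added after seeing the data. The 4 kinases and all lists were chosen with earlier results of these data known. Of each list the 3 genes with the smallest p for the mean effect were named, together with Aqp2 and the 5 genes most like Cdk18; others were named for their role after their values were seen. R was 4.3.3, Python 3.11.15.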

Additional observations from a re-analysis of the deposited data

Results flagged for a closer look

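The dDAVP effect on Aqp2 depended on time by edgeR's F test across 29743 genes (adjusted p = 0.03, the 24 h effect exceeding the 3 h one by 0.97 on the log2 scale). The log2 fold change was 4.38 at 3 h, 5.29 at 6 h, 4.31 at 12 h and 5.35 at 24 h, whereas the effect on Cdk18 was largest at 3 h.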

How the results depend on the processing

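The log2 fold changes of Cdk18 in dDAVP against vehicle were positive under every alternative run. At 6 h they moved beyond the library spread, to 0.61 with the 5 CPM filter, 1.05 with DESeq2 or RLE, 0.84 with only the compared libraries or without the 2 libraries of highest receptor share, 0.74 on rescaled TPM, and 0.62 with the covariate (0.60 with the covariate and the 5 CPM filter). On log2 TPM with 0.1 added they were 0.75 at 3 h, 0.26 at 6 h, 0.56 at 12 h and 0.48 for the mean, and with 1 added 0.71, 0.25, 0.54 and 0.46 (0.32 at 24 h). That table is scaled to a total of which 1 miRNA gene holds a large part. The log2 difference between the 24 h and 3 h effects of Cdk18 was -0.49 with the 5 CPM filter, -0.54 with the covariate and -0.49 with both. These differences are given without a test. The change of Cdk18 over time in vehicle no longer passed with RLE (0.70), the compared libraries only (0.50), log2 TPM (0.0505 with 0.1 added, 0.0478 with 1), rescaled TPM (0.54) or the covariate (0.25). Since Cdk18 was picked on its effects in these libraries, the vehicle test is no independent support for its pattern in any of these fits.

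Signs turned on log2 TPM, with 0.1 and then with 1 added, for the effect on Cdk16 at every time (3 h, -0.135 and -0.129, then 6 h, -0.072 and -0.068, with 12 and 24 h within -0.0088 to -0.0015), its mean (-0.054 and -0.052) and its vehicle change (-0.064 and -0.061), likewise for Cdk17 (3 h, -0.106 and -0.097, then 6 h, -0.17 and -0.15, then 12 h, -0.089 and -0.080, then 24 h, 0.014 and 0.013), its mean (-0.087 and -0.079) and its vehicle change (-0.145 and -0.133), and the mean effects of Ccnd3 (-0.025 and -0.024), Hgs (-0.051 and -0.050), Ndfip1 (-0.034 and -0.033), Cdk19 (-0.062 and -0.054) and Cdkl1 (-0.042 and -0.041). With the covariate, and then with the 5 CPM filter added, they turned for Cdk17 (6 h, -0.042 and -0.070, and 12 h, -0.026 and -0.030), for its mean (-0.023 and -0.037), under both also for its 3 h value (-0.022), and for Pkib (0.081 and 0.070). The cause was not tested.

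Counts of genes called moved beyond 1.5 times as follows. At 3 h (144) they were 302 with the 5 CPM filter, 70 with RLE, 68 with the compared libraries, 93 on log2(TPM + 0.1), 67 on rescaled TPM and 284 with covariate and filter. At 6 h (11320) they were 2034 with the 5 CPM filter, 6525 on log2(TPM + 1), 4551 on rescaled TPM, 4932 without a filter, 100 with the covariate and 162 with covariate and filter. At 12 h (23) they were 100 with the 5 CPM filter, 10 with RLE, 9 with the compared libraries, 12 on rescaled TPM, 88 with the covariate and 243 with both. At 24 h (25) they were 112 with that filter, 15 with RLE, 45 with the compared libraries, 14 on rescaled TPM, 104 with the covariate, 209 with both and 49 without the 2 libraries. For the mean effect (9854) they were 3285 with it, 6300 with RLE, 3579 on rescaled TPM, 4930 without a filter, 363 with the covariate, 464 with both and 555 without the 2 libraries. For the dependence on time (102) they were 155 with DESeq2, 1 with RLE, 5 on either log2 TPM, 3 on rescaled TPM, 207 without a filter and 192 without the 2 libraries. For vehicle over time (2995) they were 738 with RLE, 119 with the compared libraries, 1481 and 1833 on log2 TPM, 579 on rescaled TPM, 1932 without a filter, 771 with the covariate and 1953 with both. Among genes like Cdk18, 2 of 5 were shared on log2(TPM + 1).

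Leaving out 1 library at a time gave 70 to 406 calls at 3 h, 171 to 14058 at 6 h, 11 to 40 at 12 h, 14 to 20 at 24 h, 2592 to 16872 for the mean, 5 to 386 for the dependence on time and 451 to 10597 for vehicle over time. Cdk18 had 0.99 to 1.20 at 3 h, 0.90 to 0.96 at 6 h, 0.46 to 0.73 at 12 h, 0.39 to 0.48 at 24 h, 0.73 to 0.80 for the mean, -0.76 to -0.54 for the dependence on time and 0.43 to 0.64 for vehicle over time. Whether replicate numbers pair the libraries was not settled. Correlations of same-numbered libraries ran from -0.42 to 0.53, with 5 of 12 over 0.1, and those of other pairs from -0.62 to 0.54. Of the 12 dDAVP libraries, 4 correlated best with their own number. The replicate block gave 37 calls at 12 h, 57 for the dependence on time and 4875 for vehicle over time, and among the kinases it changed 1 call, Cdk17 over time in vehicle, which passed (0.44, adjusted p = 0.049 by edgeR).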
